A study of Mus musculus with 41 samples.

Results

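The mouse miRNAs numbered miR-680 to miR-721 form a block of names given together to small RNAs that were cloned from mouse tissue. Members were taken by name alone: every row of the array table whose miRNA number lies in that range, whatever its ending. This gave 73 of the 637 rows, which stand for 38 of the 42 numbers in the range. No row carried the names miR-684, miR-707, miR-713 or miR-716. The rows end in -a (38 rows) or -p (35 rows). What these endings mean, and which stretch of RNA each row probes, is not stated in the labels or the table, and the rows were kept apart.

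A miRNA is cut from a hairpin precursor and guides an Argonaute protein to messenger RNAs that pair with its seed, the stretch near its 5′ end. Expression of a miRNA in spleen follows the mix of lymphocytes, myeloid cells and red cell precursors as well as changes inside each cell. A block of candidates named from cloning can hold typical miRNAs beside fragments of other RNAs. miR-720, for example, is widely regarded as a fragment of a transfer RNA, and miR-712 has been traced to a spacer of the ribosomal RNA precursor.

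The arrays measured spleen RNA of C57BL mice, extracted as total RNA and converted to biotin-labelled cDNA. The labels give 4 genotypes: p53+/+NOS2+/+ (here WT), p53+/+NOS2-/- (NOS2KO, lacking the enzyme with which activated macrophages make nitric oxide), p53-/-NOS2+/+ (p53KO, lacking the tumour suppressor p53) and p53-/-NOS2-/- (DKO). Each genotype had control mice, given saline according to the series design, and mice that received C. parvum, bacteria used to provoke inflammation, with 5 control and 5 treated arrays for WT, 5 and 5 for NOS2KO, 4 and 5 for p53KO, and 6 and 6 for DKO. Neither age nor dose nor time after treatment is stated, and the design text speaks of 4 or 5 mice a group without naming the double knockout. The labels name no promoter, Cre or tissue restriction for the deletions.

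Depth on an array is the number of rows with a value, which was 310 to 464 of 637 rows, and 33 to 52 of the 73 members (median 39). The arrays fall into sets by the deposited level of miR-370, at 8.35 to 9.32 on 18 arrays (set 1) and 11.1 to 12.4 on 23 arrays (set 2). Set 1 holds all WT arrays, NOS2KO treated 1 and 2, DKO controls 1 to 5 and DKO treated 6, and set 2 holds the rest. What the sets are is not given in the labels, so they are named here only as array sets. The markers of spleen cells fixed for the check of the tissue label were bright: miR-150 of lymphocytes averaged 14.47, miR-223 of granulocytes 14.55 and miR-451 of red cells 12.91. Of the markers fixed for other tissues, liver miR-122a had values on 12 arrays and muscle miR-133a-1-3p on 7, but muscle miR-1 (mean 9.81) and pancreatic miR-375 (8.99) had values on all 41, so these markers were not all absent. All levels are normalized log2 signals, and every change is a difference of such levels.

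Sequences of 28 of the 38 numbers were found in the RefSeq miRNA table for mouse (GRCm38.p6). Not matched were miR-685, miR-689, miR-694, miR-696, miR-699, miR-709, miR-712, miR-714, miR-715 and miR-720. The mature sequences printed here belong to the members on which the treatment results turn, with the seed (bases 2 to 8) in capitals and both arms where the row name states none.
miR-700-5p: uAAGGCUCcuuccugugcuugc
miR-700-3p: cACGCGGGaaccgaguccacc
miR-702-5p: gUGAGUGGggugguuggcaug
miR-702-3p: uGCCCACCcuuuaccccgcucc
miR-703: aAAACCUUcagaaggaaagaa
miR-705: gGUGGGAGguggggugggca
miR-706: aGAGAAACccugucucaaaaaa
miR-691: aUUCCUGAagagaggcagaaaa
miR-721: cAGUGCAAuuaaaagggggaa
The next pair belongs to the members that differed most between the array sets.
miR-686: aUUGCUUCccagacggugaaga
miR-687: cUAUCCUGgaaugcagcaauga

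No 2 of these printed sequences share a seed. The seed of miR-721 is that of miR-130a-3p, miR-130b-3p and miR-301a-3p, a family with known roles in blood vessels and blood cells. Base composition of several members is extreme, but that of the block is not. Over 34 member sequences the median share of guanine was 27.3% and of adenine 23.8%, against 26.3% and 21.1% in the others. Guanine made up 70% of miR-705, a higher share than in 99.9% of the other mouse mature miRNAs, and 57.1% of miR-702-5p, a higher share than in 98.2% of them. The other arm, miR-702-3p, had 9.09% guanine. Adenine made up 57.1% of miR-703 and 50% of miR-706, higher shares than in 99.8% and 98.9% of the others.

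Several of these miRNAs lie inside the span of a protein-coding gene on GRCm38.p6. miR-702-5p lies at chr5:136991442-136991462 (plus strand) within Plod3, which encodes a collagen-modifying enzyme. miR-705 lies at chr6:85336341-85336360 (minus strand) within Rab11fip5, an endosome trafficking gene. miR-703 lies at chr5:98475616-98475636 (minus strand) within Cfap299. miR-700-3p lies at chr4:135416561-135416581 (minus strand) within Rcan3, a calcineurin regulator, miR-706 at chr6:120034290-120034311 (minus strand) within the kinase gene Wnk1, and miR-721 at chr5:136375777-136375797 (minus strand) within the transcription factor gene Cux1. The table used does not say whether these positions are exonic or intronic. Genes were matched by position alone, and their strand was not compared with that of the miRNA.

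The hairpins of miR-702, miR-703 and miR-705 are shown with the mature stretches in capitals, because rows of these members moved with treatment and the part of the hairpin each row probes is not stated.
miR-702 hairpin: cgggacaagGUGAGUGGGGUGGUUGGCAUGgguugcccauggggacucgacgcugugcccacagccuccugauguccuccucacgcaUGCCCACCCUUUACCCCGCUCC
miR-703 hairpin: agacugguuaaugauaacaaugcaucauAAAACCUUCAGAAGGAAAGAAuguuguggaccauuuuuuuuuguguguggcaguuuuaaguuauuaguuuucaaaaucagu
miR-705 hairpin: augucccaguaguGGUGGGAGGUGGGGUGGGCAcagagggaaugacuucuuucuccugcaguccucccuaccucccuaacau
Predicted folding energy differs widely among them. RNAfold gave −0.183 kcal/mol per base for the miR-703 hairpin, weaker than 99.9% of the 976 other mouse hairpins, against −0.498 for miR-705 (weaker than 16.9%) and −0.435 for miR-702 (weaker than 37.3%). The 29 member hairpins in the table had a median of −0.318 kcal/mol per base, against −0.408 for the others. The hairpins also differ in printed length, with a median of 109 bases for the members and 78 for the others. The part of length in the energy per base was not tested.

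The members differed widely in detection. Values were present on all 41 arrays for 24 rows, which cover 19 numbers. Another 14 rows had a value on 21 to 40 arrays, 15 on 4 to 20, and 20 on 1 to 3, of which 12 had a single value. No member was empty on every array. In all, 46.0% of the members' cells held no value, against 39.7% for the 564 other rows, 42.7% for the 35 neighbouring rows numbered miR-651 to miR-679, and 33.4% for the 194 rows numbered miR-1 to miR-150. These shares are descriptions, with no test between blocks.

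**Figure D1:**
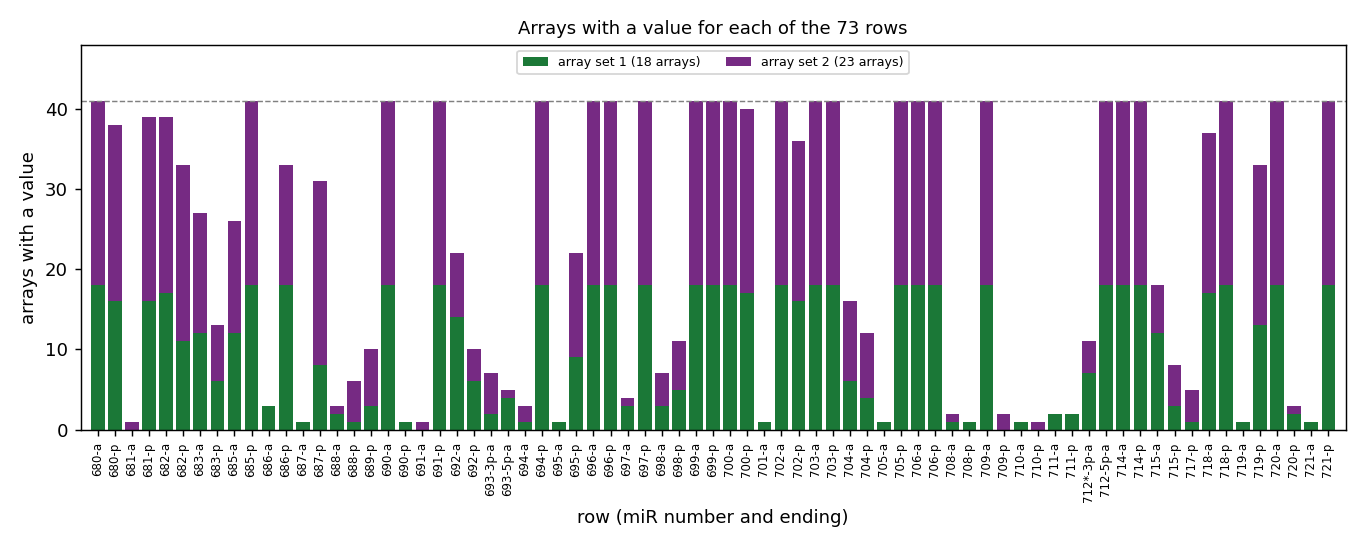
Number of arrays (vertical axis) with a value for each of the 73 rows (horizontal axis, miR number and ending), split into array set 1 (18 arrays) and set 2 (23 arrays). The dashed line marks all 41 arrays, which 24 rows reach, while 20 rows have a value on 1 to 3 arrays.

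The pair of rows of a number often differed in detection. Among 33 numbers with an -a and a -p row, the -p row had values on more arrays in 14, the -a row in 12, and the counts were equal in 7, of which 5 were complete for both. miR-705-p was measured on all 41 arrays and miR-705-a on 1. miR-709-a was on 41 and miR-709-p on 2, and miR-720-a was on 41 and miR-720-p on 3.

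Among the 24 complete rows, mean levels ran from 7.44 (miR-697-p) to 14.36 (miR-706-p), with a median of 9.95 against 10.22 for all 227 complete rows of the table. The order at the top was miR-706-p (rank 11 of 227), miR-720-a (12.74, rank 30), miR-709-a (12.10, rank 43) and miR-706-a (11.87, rank 50). Levels of different rows depend on the probe as well as on the RNA, so this order compares signals, not amounts.

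miR-689-p was bright where it was measured. It had values on 10 of 41 arrays, at 10.45 to 12.49. Of these arrays, 8 were controls, including all 4 p53KO controls, and 2 were treated, p53KO treated 1 and DKO treated 6. The row had too few values for any treatment test.

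Treatment with C. parvum moved 7 of 33 tested members in WT, 5 of 38 in NOS2KO and 6 of 32 in p53KO. The shares of all tested rows called were 34.5%, 25.7% and 29%. The same 4 member rows passed in all 3 of these genotypes, and the share of all rows doing so was not computed. miR-699-a and miR-703-a fell, and miR-702-a and miR-705-p rose, in all 3. Averaged over the 4 genotypes, miR-699-a changed by −1.26 ± 0.15 (SE), a 2.40-fold fall, and miR-702-a by 0.87 ± 0.11 (SE), a 1.83-fold rise. In DKO mice 4 of 39 members passed by limma, against 14.1% of all rows. DKO controls lie mostly in set 1 and treated DKO arrays mostly in set 2. With the array set held fixed, 0 of 39 members passed in DKO by limma (6 at an unadjusted p under 0.05), against 2.95% of all rows in that fit. Few DKO arrays separate treatment from set, so the count of 0 says little about the DKO response.

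In the average over genotypes, 30 members could be tested, and 8 rose and 3 fell, against a background of 57.7% of all 291 tested rows (31.6% higher and 26.1% lower). The members' share called was 36.7%, and that of the other tested rows 60.2%. Tests are from limma, with moderated variances from 1 fit of all 41 arrays and Benjamini-Hochberg adjustment over all rows tested in a comparison, at 0.05. The median change was 0.10 over the members and 0.07 over all rows. The balance of directions depends on the scaling: the split was 5 higher and 10 lower with the values as deposited and 11 higher and 3 lower with arrays centred on their medians, while the median change of all rows was −0.08 and 0.17. Each change thus stands relative to the typical row of the table, and a p-value measures the spread between mice only as far as each array is a separate mouse.

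**Figure D2:**
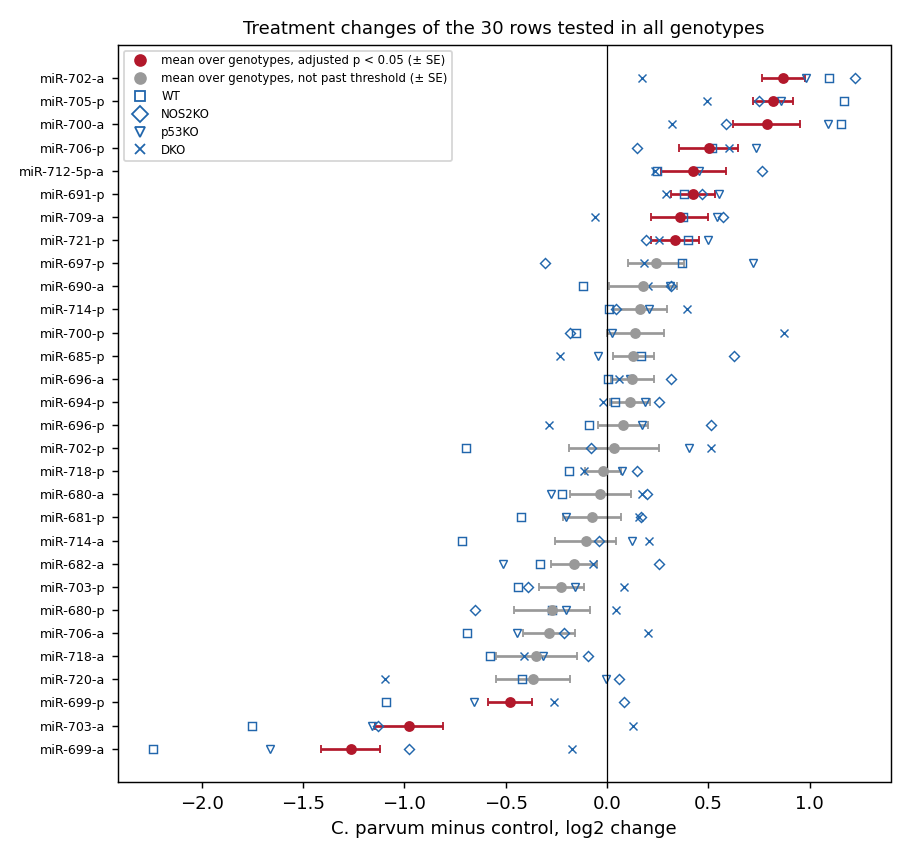
Log2 change from control to C. parvum (horizontal axis) for the 30 members tested in all genotypes (vertical axis). Filled circles are means over the 4 genotypes with SE, red where the adjusted p passed 0.05, and open or crossed blue symbols are the single genotypes; the DKO crosses of miR-699-a and miR-703-a lie near 0.

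The steepest fall among the tested members in WT, in p53KO and in the average over genotypes was that of miR-699-a. In WT controls it stood at 10.89, 10.35, 10.45, 10.66 and 10.21, and in treated WT mice at 7.93, 8.60, 7.57, 8.22 and 9.02. All treated WT arrays lay below all controls, and the change was −2.24 ± 0.30 (SE, adjusted p = 6.76e-07, limma), a 4.73-fold fall. In p53KO it went from 9.27, 9.96, 10.32 and 9.77 to 8.80, 7.40, 8.46, 8.36 and 7.79, again without overlap, a change of −1.67 ± 0.31 (SE, adjusted p = 0.000221, limma). In NOS2KO it went from 9.86, 9.54, 9.42, 9.57 and 9.56 to 8.51, 9.08, 7.60, 8.30 and 9.57. NOS2KO treated 5 was as high as the controls, and the change was −0.98 ± 0.30 (SE, adjusted p = 0.0136, limma). The call was lost without NOS2KO treated 3 (adjusted p = 0.0592) and in a fit of the NOS2KO arrays alone (0.0604).

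miR-699-a was already low in DKO controls, at 8.27, 8.15, 8.46, 9.15, 8.57 and 8.63, and treated DKO arrays overlapped them at 9.00, 8.35, 7.86, 8.35, 7.79 and 8.84. The change in DKO was −0.17 ± 0.27 (SE, adjusted p = 0.714, limma). The other row of this number, miR-699-p, fell by 1.09 ± 0.22 in WT (10.01 ± 0.70 to 8.92 ± 0.15, SD, n = 5 each) and by 0.65 ± 0.23 in p53KO, and gave 0.08 ± 0.22 in NOS2KO and −0.26 ± 0.20 in DKO (SE). Its call in p53KO was lost with arrays centred on their medians (adjusted p = 0.118) and without any of p53KO treated 2 or 4 or controls 4 or 5.

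The mature sequence of miR-703 is adenine-rich, but the stretch that miR-703-a probes is not stated. miR-703-a also fell in WT, p53KO and NOS2KO. WT controls stood at 11.34, 10.66, 11.08, 10.89 and 10.45 and treated WT arrays at 8.73, 9.40, 8.90, 9.30 and 9.32. The groups did not overlap, and the change was −1.75 ± 0.34 (SE, adjusted p = 0.000119, limma), a 3.37-fold fall. It fell by 1.16 ± 0.36 in p53KO (10.24 ± 0.55, n = 4, to 9.09 ± 0.48, n = 5, SD; adjusted p = 0.0147, and 0.0546 without p53KO control 4).

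In NOS2KO, miR-703-a went from 10.19, 10.71, 10.73, 11.04 and 10.61 to 9.32, 9.79, 8.27, 8.98 and 11.28. NOS2KO treated 5 was above every control, the other treated arrays were below every control, and the change was −1.13 ± 0.34 (SE, adjusted p = 0.0131, limma; 0.0592 without NOS2KO treated 3). Within the set 2 arrays the NOS2KO change was −1.15, with an adjusted p of 0.0831, and in a fit of the NOS2KO arrays alone the adjusted p was 0.112. miR-703-p gave −0.44 ± 0.22 in WT (SE, adjusted p = 0.132) and did not pass in any genotype.

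**Figure D3:**
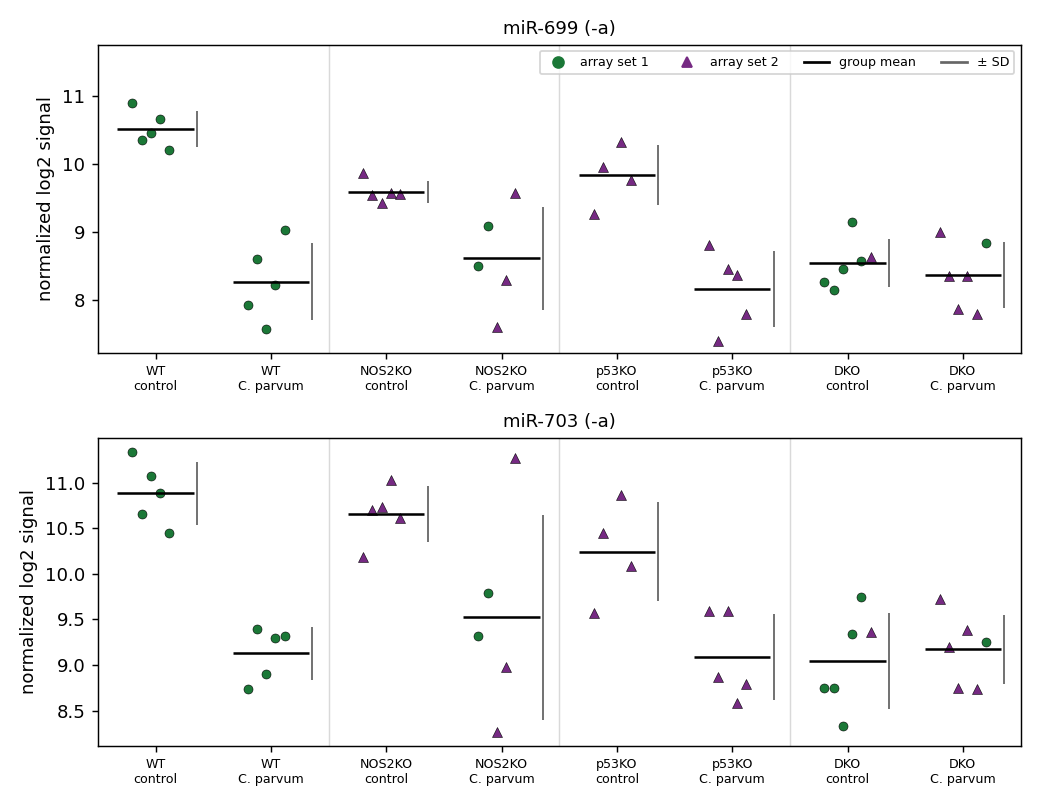
Normalized log2 signal (vertical axis) of miR-699-a and miR-703-a on each array, by genotype and treatment (horizontal axis); circles are set 1 arrays, triangles set 2 arrays, bars group means and grey lines SD. Treated WT arrays lie below all WT controls in both panels, and the DKO controls lie at 8.15 to 9.15 for miR-699-a, near the treated arrays.

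The difference between the DKO response and the WT response passed for 2 of 33 tested members, against 5.13% of all rows (2.56% higher), and these were miR-699-a (2.07 ± 0.40, SE, adjusted p = 0.00239) and miR-703-a (1.88 ± 0.46, SE, adjusted p = 0.0103, limma). DKO controls lie mostly in set 1 and treated DKO arrays mostly in set 2, so a shift between sets does not drop out of this difference. With the array set as a block 3 of 33 members passed, against 3.54% of all rows. The differences of miR-699-a and miR-703-a in that fit were 2.24 and 1.84 (adjusted p = 0.00153 and 0.0296, limma). Within the set 1 arrays, where DKO has a single treated array, these differences were 2.56 and 2.02. The difference between the NOS2KO and WT responses passed for 0 of 33 members (3 at an unadjusted p under 0.05) against 0.328% of rows, and between p53KO and WT for 0 of 30 (0 unadjusted) against 0% of rows. For miR-699-a these differences were 1.26 (95% interval 0.42 to 2.11) and 0.58 (−0.29 to 1.44), and their adjusted p were 0.149 and 0.859 (limma). These intervals are not adjusted for the number of rows.

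Among controls, DKO mice had lower levels than WT in 8 of 39 tested members and higher in 0, against 13.7% of all rows (7.87% lower). The difference was −1.97 ± 0.28 for miR-699-a (SE, adjusted p = 8.82e-06) and −1.84 ± 0.33 for miR-703-a (SE, adjusted p = 0.000207, limma). The others were miR-682-p (−1.36), miR-680-a (−1.18), miR-712-5p-a (−1.03), miR-700-p (−0.93), miR-706-a (−0.91) and miR-699-p (−0.79). Within set 1, the only set holding both groups, miR-699-a (−1.99), miR-703-a (−1.90), miR-680-a (−1.20), miR-706-a (−0.90) and miR-699-p (−0.82) passed, as did miR-682-a (−0.60), miR-685-a (−0.82) and miR-721-p (−0.63), and miR-682-p, miR-700-p and miR-712-5p-a did not.

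The comparison of DKO with WT controls shares the WT and DKO control arrays with the difference of responses, so they are not independent readings of miR-699-a and miR-703-a. The count was 5 without DKO control 1. For the alternative fits of this paragraph the share of all rows called is not given here. Calls were also lost for miR-699-p without WT control 2, for miR-706-a without WT control 1, for miR-700-p without WT control 1 or DKO control 1 or 4, and for miR-712-5p-a without WT control 2 or DKO control 1 or 2. That of miR-682-p held only without WT control 3 or DKO control 3 or 5. As deposited it was 1 higher and 7 lower.

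miR-702-a, the member in Plod3, rose in WT, NOS2KO and p53KO mice without overlap of treated and control arrays in any of them. WT went from 10.73, 10.32, 10.52, 10.56 and 10.47 to 11.31, 11.69, 11.65, 11.97 and 11.48, a change of 1.10 ± 0.21 (SE, adjusted p = 0.000135, limma). NOS2KO went from 10.47, 9.90, 9.94, 10.32 and 10.37 to 11.87, 11.69, 11.15, 11.69 and 10.75, a change of 1.23 ± 0.22 (SE, adjusted p = 0.000113). p53KO went from 9.86, 9.98, 9.70 and 9.57 to 11.04, 10.47, 10.21, 10.99 and 11.10, a change of 0.98 ± 0.23 (SE, adjusted p = 0.00217). DKO controls overlapped treated arrays (10.69 ± 0.46 and 10.86 ± 0.33, SD, n = 6 each), with a change of 0.17 ± 0.20 (SE, adjusted p = 0.611). The DKO response differed from that of WT by −0.92 ± 0.29 (SE, adjusted p = 0.0509), which did not pass. Within the set 1 arrays, where DKO has a single treated array, this difference was −1.36. The DKO change itself was −0.26 within set 1 and 0.81 within set 2, where DKO has a single control array. Whether miR-702-a rises in DKO is thus not settled. miR-702-p, measured on 36 arrays, gave changes from −0.70 to 0.51 in the 4 genotypes, none of which passed.

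The mature sequence of miR-705 is guanine-rich, but the stretch that miR-705-p probes is not stated. miR-705-p went from 9.17, 8.62, 9.02, 8.89 and 9.02 in WT controls to 10.19, 9.94, 10.05, 10.30 and 10.09 in treated WT mice. These groups did not overlap, and the change was 1.17 ± 0.20 (SE, adjusted p = 1.42e-05, limma), a 2.25-fold rise. It rose by 0.86 ± 0.21 in p53KO and by 0.75 ± 0.20 in NOS2KO (SE, adjusted p = 0.00267 and 0.00451), where the groups overlapped. In DKO the change was 0.50 ± 0.18 (SE, adjusted p = 0.0580). Within set 2 the NOS2KO change was 0.64, with an adjusted p of 0.0849, and in a fit of the NOS2KO arrays alone the adjusted p was 0.0547.

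miR-700-a, the member in Rcan3, rose in WT and p53KO. WT controls were spread, at 11.65, 8.72, 10.49, 10.47 and 10.71, against 11.83, 11.80, 11.48, 11.15 and 11.55 after treatment. The change of 1.15 ± 0.34 (SE, adjusted p = 0.00637, limma) lost its call without WT control 2, the lowest array (adjusted p = 0.0502). In p53KO the change was 1.09 ± 0.36 (SE, adjusted p = 0.0192), which was lost as deposited (0.80, adjusted p = 0.0780) and without any of p53KO treated 1, 4 or 5 or control 5. NOS2KO gave 0.59 ± 0.34 (SE, adjusted p = 0.186, limma) and DKO 0.32 ± 0.31. The DKO change was −0.38 within set 1 and 1.01 within set 2, each with a single array in one of the groups.

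**Figure D4:**
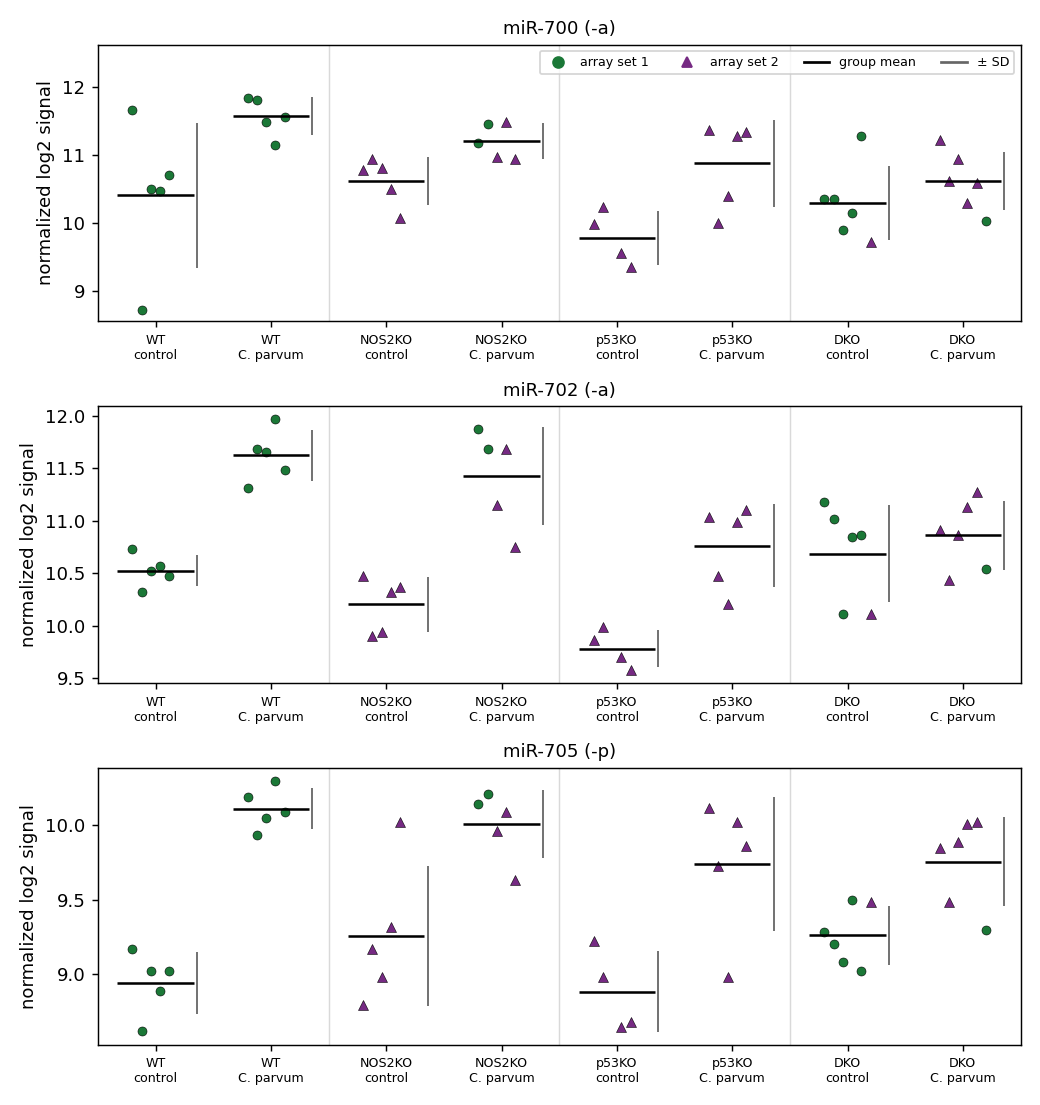
Normalized log2 signal (vertical axis) of miR-700-a, miR-702-a and miR-705-p on each array, by genotype and treatment (horizontal axis), with symbols as for the falling members. Treated WT arrays lie above all WT controls for miR-702-a and miR-705-p, and WT control 2 lies at 8.72 for miR-700-a.

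By genotype, the members' calls were few and their share was below that of the table in each. WT had 3 higher and 4 lower of 33 tested, against 34.5% of all rows (17.2% higher and 17.2% lower). NOS2KO had 3 higher and 2 lower of 38, against 25.7% (12.1% and 13.6%). p53KO had 3 higher and 3 lower of 32, against 29% (13.9% and 15.1%). DKO had 2 higher and 2 lower of 39, against 14.1% (7.96% and 6.1%). As deposited the WT split was 3 higher and 9 lower, and with arrays centred it was 6 and 3. For NOS2KO these splits were 2 and 5 and then 5 and 2, for p53KO 2 and 5 and then 7 and 2, and for DKO 1 and 1 and then 3 and 1. In NOS2KO the count was 10 without NOS2KO treated 5. The shares of all rows called in these alternative fits are not given here, so the moves are not read as results about the members.

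In WT, NOS2KO and p53KO, the calls outside the rows already described were miR-706-a in WT and miR-685-p in NOS2KO. The mature sequence of miR-706 is adenine-rich and maps within Wnk1. miR-706-a changed by −0.69 ± 0.26 (12.51 ± 0.52 to 11.82 ± 0.32, SD, n = 5 each, adjusted p = 0.0362, limma). This call was lost with centred arrays, in a fit of the WT arrays alone, and without any of WT treated 1 or 5 or controls 1 or 3. miR-685-p changed by 0.63 ± 0.20 in NOS2KO (9.69 ± 0.23 to 10.31 ± 0.64, SD, n = 5 each; adjusted p = 0.0201). Its highest treated arrays were NOS2KO treated 1 (10.94) and 2 (10.89), the set 1 arrays of that group, and with the array set as a block the change was 0.46 (adjusted p = 0.103).

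The other rises in the average over genotypes were smaller. miR-706-p, the brightest member, rose by 0.50 ± 0.14 (SE, adjusted p = 0.00307) and miR-691-p, within the axon guidance gene Robo2, by 0.42 ± 0.11 (adjusted p = 0.000883). miR-712-5p-a (0.43 ± 0.16), miR-709-a (0.36 ± 0.14) and miR-721-p (0.34 ± 0.12) passed with adjusted p of 0.0210, 0.0279 and 0.0141, and all 3 lost the call as deposited (0.29, 0.25 and 0.22). That of miR-709-a was also lost without p53KO control 5 (adjusted p = 0.0628). None of these rows passed in a single genotype. Treated WT arrays of miR-691-p, at 9.83, 9.61, 9.60, 9.68 and 10.01, lay just above the controls at 9.28, 9.52, 9.47, 8.98 and 9.57. miR-706-a and miR-706-p, which carry the same number, moved in opposite directions in WT, by −0.69 and 0.52 (adjusted p = 0.0362 and 0.175).

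Markers of spleen cells and of other tissues moved with the treatment beside these members. Averaged over genotypes, both erythroid markers measured on all arrays rose, miR-486 by 2.06 and miR-451 by 0.95. Of the 3 lymphoid markers, miR-150 and miR-181a-5p fell by 0.98 and 1.12, and miR-155 gave −0.24 (adjusted p = 0.0707). Of the 3 myeloid markers, miR-223 and miR-21 rose by 0.70 and 0.80, and miR-146 gave 0.12 (adjusted p = 0.175). The stromal marker miR-145 fell by 0.90 (adjusted p = 4.50e-10), with a lower treated than control mean in each genotype. Of the markers of other tissues, muscle miR-1 rose by 0.58 (adjusted p = 0.0141) and pancreatic miR-375 gave −0.51 (adjusted p = 0.268, limma). The remaining 5 markers of the lists, miR-144, miR-143, miR-199a-5p, miR-122a and miR-133a-1-3p, had too few values for this test. The mean level of the pair of erythroid markers ran from 11.55 to 12.19 in WT controls and from 13.51 to 14.01 in treated WT arrays. In DKO controls it was already 12.96 to 13.57, with 13.11 to 13.92 after treatment.

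The part of these cell types in the members' changes was not tested. In bulk spleen RNA, fewer cells of a type and less RNA per cell cannot be told apart.

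In DKO mice the calls were miR-686-p (−3.19 ± 1.07), miR-687-p (2.37 ± 0.53), miR-700-p (0.87 ± 0.26) and miR-720-a (−1.10 ± 0.34, SE). With the array set as a block 0 of these passed, and their changes were 0.20 ± 0.41, 0.39 ± 0.54, 0.73 ± 0.31 and −0.60 ± 0.39 (SE). DKO controls lie in set 1 but for control 6, and treated DKO arrays in set 2 but for treated 6. Within either set one of the groups is a single array, so the lone array is assumed to vary like the other groups and the within-set values say little about these calls. The changes within set 1 and set 2 were 1.20 ± 0.59 and 0.16 ± 0.36 for miR-700-p and −0.66 ± 0.50 and −0.54 ± 0.68 for miR-720-a (SE). The call of miR-700-p was also lost without control 4 or treated 2, that of miR-720-a without control 4 or 5 or treated 2 or 3, and that of miR-686-p without any of controls 1 to 5 or treated 1 to 5.

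miR-686-p, whose mature sequence maps within the proteasome gene Psmb5, divided the arrays by set. Every set 1 array lay between 10.37 and 12.45, and set 2 arrays lay between 5.29 and 7.48 or had no value. DKO controls stood at 10.99, 10.37, 10.56, 11.69, 11.65 and, on the set 2 array, 6.66. Treated DKO arrays stood at 5.55, 6.69, 5.91 and 5.55, with 1 missing value, and at 11.97 on the set 1 array. NOS2KO treated 1 and 2 stood at 11.93 and 12.45 and the other treated NOS2KO arrays at 7.15, 5.29 and 7.48. The level followed the set within all 3 groups that span both.

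Fitted within groups, set 2 minus set 1 was −5.35 ± 0.34 for miR-686-p (SE, adjusted p = 7.26e-13, limma). Of 41 members tested for the set, 1 was higher in set 2 and 4 were lower, against 12.5% of all rows (8.14% and 4.33%). miR-687-p, within the retinoblastoma gene Rb1, was the one higher, by 2.47 ± 0.49 (SE), with values on 8 of 18 set 1 arrays and on all 23 set 2 arrays. Lower were miR-712-5p-a (−0.98 ± 0.26), miR-696-p (−0.84 ± 0.19) and miR-706-a (−0.69 ± 0.22, SE). Without DKO treated 6 the last 3 did not pass, without NOS2KO treated 1 miR-712-5p-a and miR-706-a did not, without NOS2KO treated 2 or 3 miR-706-a did not, and without DKO control 6 miR-687-p did not (adjusted p = 0.0840).

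**Figure D5:**
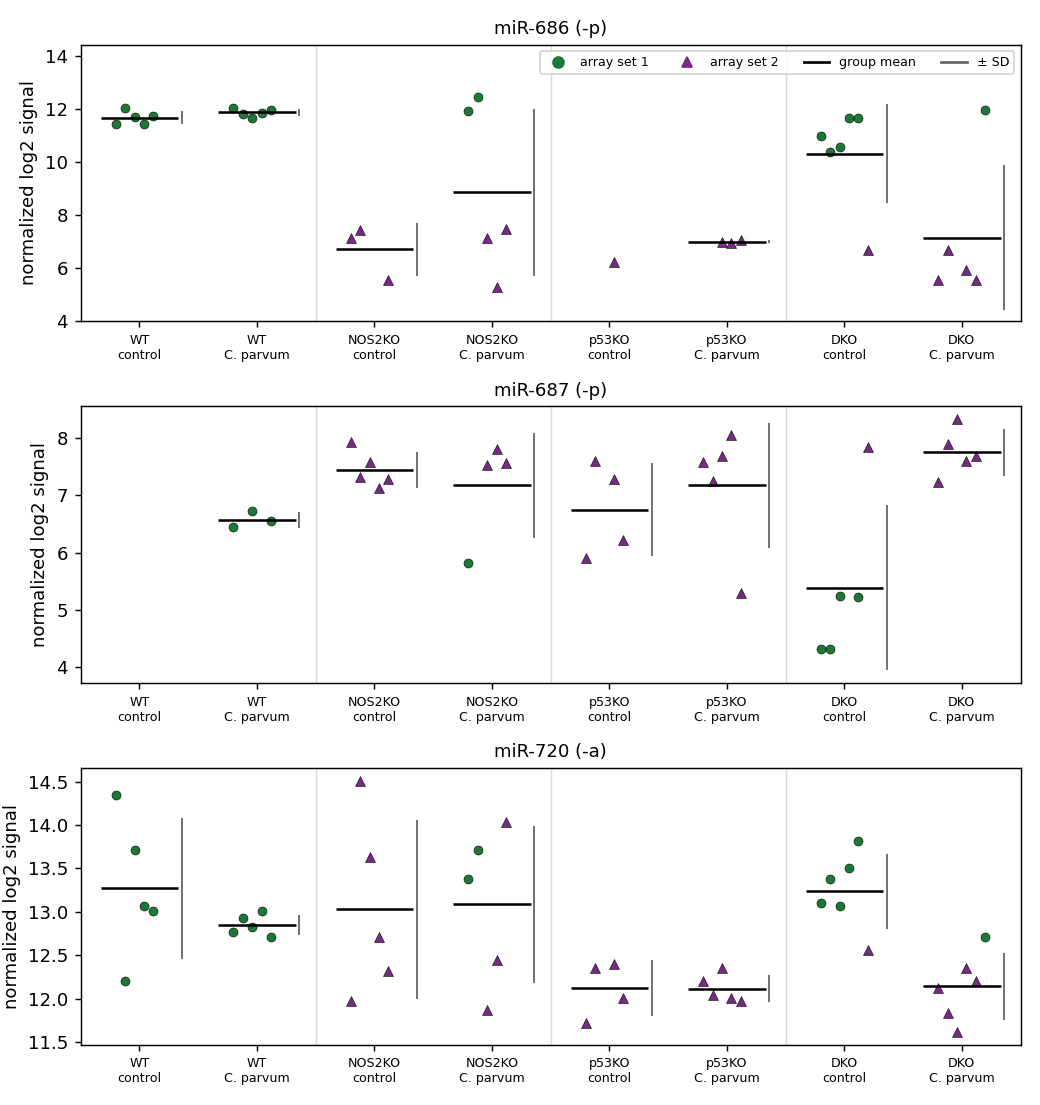
Normalized log2 signal (vertical axis) of miR-686-p, miR-687-p and miR-720-a on each array, by genotype and treatment (horizontal axis); circles are set 1 arrays and triangles set 2 arrays. Set 1 arrays of miR-686-p lie at 10.37 to 12.45 in every group that has them, and set 2 arrays at 5.29 to 7.48.

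miR-720-a was bright on every array (11.61 to 14.51). DKO controls stood at 13.10, 13.38, 13.06, 13.51, 13.82 and 12.57 and treated DKO arrays at 12.13, 11.83, 11.61, 12.35, 12.21 and 12.71. The groups overlapped only through control 6 and treated 6, the arrays of the opposite set. In the other genotypes the changes were −0.42 in WT, 0.06 in NOS2KO and −0.01 in p53KO, none of which passed. NOS2KO controls alone spread from 11.97 to 14.51.

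NOS2KO and p53KO controls share no array set with WT controls, so genotype and set cannot be told apart in the next comparisons. NOS2KO controls were higher than WT in 1 and lower in 6 of 37 tested members, against 23.1% of all rows (10.3% and 12.8%). p53KO controls were lower in 7 of 32 and higher in 0, against 26.7% (12.1% lower). miR-712-5p-a was lower in both (−1.18 ± 0.32 and −1.73 ± 0.34, SE), and so were miR-699-p (−0.96 and −0.62) and miR-685-p (−0.88 and −0.61). miR-697-p was the higher member in NOS2KO (1.20 ± 0.28). As deposited the p53KO split was 1 higher and 4 lower, and with arrays centred it was 1 and 10. The shares of all rows called under these scalings are not given here. The p53KO call of miR-699-p was lost without WT control 2 or 4 or p53KO control 1, 2 or 4. With the set as a block, 0 of 36 and 0 of 32 members passed by limma, and 1 in each had an unadjusted p under 0.05, against 0% and 0.318% of all rows in those fits.

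NOS2KO, p53KO and treated DKO mice lie mostly in set 2. Between p53KO and NOS2KO, 0 of 33 members passed among controls (4 at an unadjusted p under 0.05), against 0.912% of rows, and 0 of 34 among treated mice (6 unadjusted), against 2.92%. Between treated DKO and p53KO mice 0 of 34 passed (0 unadjusted), against 0.575% of rows. For miR-699-a in treated mice, p53KO, NOS2KO and DKO means were 8.16 ± 0.56 (SD, n = 5), 8.61 ± 0.76 (n = 5) and 8.37 ± 0.49 (n = 6), and the WT mean was 8.27 ± 0.56 (n = 5). Neighbours in this order differ by less than their SD.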

How the data were processed

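Spleen RNA was measured on 41 arrays. The log2 values were deposited by the authors as a single processed table of 637 rows. Their log base is inferred from the values; nothing used here states the scanner, the background correction or the normalization, and if the base differs every change differs with it. Of 26117 cells 10562 (40.4%) are empty, and depth is the number of rows with a value. The number of arrays limits the precision.

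Arrays were quantile-normalized, ranked from the brightest value down, since their medians over 227 complete rows ran from 9.87 to 10.6. Missing cells stayed missing. The 8 group means were fitted per row with limma 3.58.1 in R 4.3.3 and tested where each group had at least 3 values, with Benjamini-Hochberg adjustment over all tested rows at 0.05. The procedure was tested on simulated data, in which no shift between array sets was placed. In each simulation 200 rows were changed, of 319 tested for the WT effect and 291 for the average. That is a larger share than was called in the data, which makes changes easier to call. For the WT effect, 78.7% of log2 changes of 1 and 33.5% of changes of 0.5 were called. For the average over genotypes these shares were 99.25% and 86.95%. Of the calls, 2.53% and 5.21% were false, which holds only for that share of changed rows. A change of 0.5 in a single genotype can thus often be missed. Hairpins were folded with RNAfold 2.7.2. Members and lists were chosen with earlier results of these data known. Members named with values are all rows of miR-699, miR-702, miR-703, miR-705 and miR-720, rows passing in the average treatment effect, in at least 2 genotypes, in a difference of responses or in a genotype comparison whose groups share a set, and rows passing for the array set; the others named were chosen after their values were seen. Alternatives were the scaling, the treatment of missing cells, the filter, the array set, the replicate block, array weights, a variance trend, fits of only the arrays compared and leaving out each array.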

Additional observations from a re-analysis of the deposited data

Results flagged for a closer look

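Among 162 groups of 4 to 6 values of the named members, 11 values stood apart from the rest of their group by Dixon's gap criterion at 95%. Chance alone gives about 1 in 20 groups, so much of this number can be chance. Several of these values lie on the same array. Of these values, 7 lie on arrays of the set that holds the fewer arrays of their group. DKO control 6 was far below its group for miR-686-p (6.66) and far above it for miR-687-p (7.85). DKO treated 6 was far above its group for miR-686-p (11.97), miR-696-p (12.40) and miR-712-5p-a (9.34) and far below it for miR-691-p (9.17). NOS2KO treated 1 was far below its group for miR-687-p (5.82).

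The other 4 were single high or low values in groups whose array lies in the same set as most of its group. miR-696-p stood at 11.10 on p53KO control 4, the highest of its group. miR-700-p stood at 5.23 on DKO control 4, and miR-702-p at 5.55 on NOS2KO control 5, each the lowest. miR-706-p stood at 14.80 on DKO control 5, the highest.

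The response to treatment differed between DKO and WT by a test of the difference itself for miR-699-a (2.07) and miR-703-a (1.88), both rows falling in WT and not in DKO. All WT arrays lie in set 1, but DKO control and treated arrays lie mostly in opposite sets. A shift between sets therefore does not drop out of this test.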

How the results depend on the processing

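For 57 changes of named members, 1547 alternatives were computed: 1413 kept the direction and the call, 130 lost the call and 4 reversed. The reversals were miR-686-p in DKO with the array set as a block (0.20) and within set 1 (0.91), miR-687-p in DKO within set 2 (−0.10), and miR-686-p between NOS2KO and WT controls with the set as a block (0.37). The counts of members called moved by over 1.5 times in 41 of 377 alternatives. As deposited, the count was 12 in WT (7 otherwise), 2 in DKO (4), 4 for the DKO response minus WT (2) and 1 for p53KO minus NOS2KO among treated (0). With arrays centred it was 1 for the NOS2KO response minus WT (0) and 11 for p53KO minus WT controls (7). With the array set as a block it was 0 in DKO and for NOS2KO and p53KO minus WT controls, against 2.95%, 0% and 0.318% of all rows. Counts of the DKO response within set 1 or set 2 also moved, but 1 DKO group is a single array in each set, so they say little and are not given. With only the arrays compared it was 2 in NOS2KO (5), 2 in DKO, 4 for p53KO and 3 for DKO minus WT controls (8). With array weights it was 12 in WT, 10 in NOS2KO, 9 in DKO, 5 for the DKO response minus WT and 9 for the array set (5). Rows on all arrays gave 2 in DKO, 1 for the NOS2KO response minus WT and 1 for p53KO minus NOS2KO among treated, and missing cells at a low value (4.86) gave 1 there. Except for the array set as a block, the share of all rows called is not given beside these counts or the leave-one-out counts below. A moved count therefore does not show whether the members moved apart from the rest of the table. The cause of these moves was not tested.

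Leaving out each array in turn gave 6 to 9 calls in WT, 4 to 10 in NOS2KO (10 without treated 5), 4 to 8 in p53KO, 1 to 6 in DKO (1 without control 4 or treated 2, 2 without treated 3) and 11 to 14 in the average. It gave 0 to 2 for the NOS2KO response minus WT (2 without NOS2KO treated 3, 1 without WT treated 4 or WT control 3 or 5), 0 to 0 for p53KO and 2 to 3 for DKO. Among controls it gave 5 to 7 for NOS2KO, 4 to 10 for p53KO (4 without p53KO control 1) and 5 to 10 for DKO (5 without DKO control 1) against WT. It gave 0 to 3 for p53KO minus NOS2KO among treated (3 without NOS2KO treated 3, 2 without p53KO treated 1, 1 without NOS2KO treated 5 or p53KO treated 5) and 2 to 6 for the array set (2 without DKO treated 6, 3 without NOS2KO treated 1).

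Whether the replicate numbers pair the arrays is not stated in the labels, and no pairing was assumed. Same-numbered control and treated arrays had correlations of deviations from −0.41 to 0.30. In DKO all same-numbered arrays lie in opposite sets, so these correlations cannot settle the pairing. With the replicate block the counts were 7 in WT, 5 in NOS2KO, 6 in p53KO, 3 in DKO and 11 in the average, and miR-687-p lost its call for the array set (1.56).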
